A study of Mus musculus with 8 samples.

Results

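The 37 genes described here encode the enzymes of glycolysis, the proteins that make, move and dispose of lactate and pyruvate, and the sensors and targets of the cellular response to low oxygen. They were given as a list of gene symbols and were not picked by a threshold on their values. All 37 were found among 61535 loci, of which 50060 carry a gene name. RNA was sequenced from 8 samples of mouse embryonic stem cells of strain C57BL/6J, derived from a blastocyst and kept on mouse embryonic fibroblast feeder cells with LIF, in 4 groups of 2. Every group, the untreated one included, has the genotype Mll1fl/fl and the tamoxifen-activated recombinase Cre-ER. MM401 cells received the MLL1 inhibitor MM401 at 100 µM. Mll1-deleted cells received 4-OHT at 5 µM, which activates the recombinase and deletes the floxed gene for MLL1, a histone methyltransferase. The 2i cells received PD03259010 at 1 µM and CHIR99021 at 3 µM, inhibitors of the kinases MEK and GSK3. Each treatment ran for 5 days. MM401 and 4-OHT were given in LIF and serum, and 2i in LIF and serum replacement. The sources used here do not give the medium of the untreated cells. No vehicle-treated group is among the samples, so an agent and its solvent cannot be told apart.

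The authors deposited 1 value per group, in which both libraries of the group were already combined. A replicate spread, and with it any SD, n or p-value, is therefore missing, and no difference below has a replicate check. Levels are in FPKM (fragments per kilobase of transcript, normalised for sequencing depth), and square brackets hold the interval that the authors deposited beside the value, of unstated confidence level. A ratio is log2 of FPKM + 1 in the first group over FPKM + 1 in the second, which understates the change of genes with low levels. A gene is called higher or lower if it reached 1 FPKM in either group and its ratio was at least 1 in size, a 2-fold difference. Total estimated counts ran from 76501619 (MM401) to 90728747 (2i) per group, and 36 of the 37 genes had at least 1 FPKM in every group, Car9 being the exception.

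All 12 pluripotent cell markers and all 16 fibroblast markers examined reached at least 1 FPKM in every group, so RNA of both marker sets was present. Whether the RNA of the fibroblast markers came from the feeder cells was not tested. Summed pluripotency marker levels were 10706 FPKM in MM401, 12126 in Mll1-deleted, 9331 in 2i and 10261 in untreated cells. One locus, Dppa5a joined with Gsta2, carries most of that sum, at 8828 FPKM in MM401, 8382 in Mll1-deleted, 5734 in 2i and 7220 in untreated cells. Without it, a choice made after the values were seen, the sum over 11 markers was 1879 FPKM in MM401, 3744 in Mll1-deleted, 3598 in 2i and 3041 in untreated cells, so MM401 was then the lowest group. Summed fibroblast marker levels were 2182 FPKM in MM401, 1365 in Mll1-deleted, 3841 in 2i and 1721 in untreated cells. Col3a1, joined with AC125167.1, was at 676 FPKM in MM401, 351 in Mll1-deleted, 1884 in 2i and 547 in untreated cells. Its intervals began at 0. Without Col3a1 the sum over 15 markers was 1505 FPKM in MM401, 1013 in Mll1-deleted, 1957 in 2i and 1174 in untreated cells. This choice too was made after the values were seen. Fn1, at 643 FPKM in MM401 and 670 in 2i, had upper limits (244 and 240) below its values. In such bulk samples, fewer cells of a type and less RNA per cell cannot be told apart. Kmt2a, which encodes MLL1, was at 14.6 FPKM in MM401, 11.8 in Mll1-deleted, 8.72 in 2i and 15.5 in untreated cells. A value over the whole gene does not measure the deletion of part of it.

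Glycolysis turns glucose into pyruvate in the cytosol and yields ATP without oxygen. Its early steps, from hexokinase to triosephosphate isomerase, spend ATP to make triose phosphates, and its later steps, from glyceraldehyde phosphate dehydrogenase to pyruvate kinase, recover it. Pyruvate then either enters the mitochondria through pyruvate dehydrogenase or is reduced to lactate. The hypoxia-inducible factors (HIF), which prolyl hydroxylases mark for destruction when oxygen is present, raise the transcription of most glycolytic enzymes and of many genes outside glycolysis. Pluripotent stem cells are known for a high rate of glycolysis even in air.

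Promoter sequence is shown for 3 pairs of related enzymes whose members stood on opposite sides of the untreated level in MM401 cells: Ldha and Ldhb, Hk2 and Hk1, and Pdk1 and Pdk4. Each window runs from 250 bases before to 50 bases after an annotated start, on the gene's own strand, from RefSeq on GRCm38.p6. Capitals mark every ACGTG or GCGTG on either strand, the letters at the core of the hypoxia response element, so that CACGT and CACGC are the same motifs read from the opposite strand. CACGTG holds ACGTG on both strands and counts as 2 overlapping matches. Where a gene has several windows, the one with the most matches is shown.
Ldha (chr7:46845554-46845853, plus strand): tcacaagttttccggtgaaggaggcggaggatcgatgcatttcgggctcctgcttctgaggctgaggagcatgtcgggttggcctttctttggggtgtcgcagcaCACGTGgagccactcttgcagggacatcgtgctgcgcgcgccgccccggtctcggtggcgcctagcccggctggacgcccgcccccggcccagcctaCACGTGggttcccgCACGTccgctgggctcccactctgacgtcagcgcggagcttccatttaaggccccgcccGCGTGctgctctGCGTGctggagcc
Ldhb (chr6:142507908-142508207, minus strand): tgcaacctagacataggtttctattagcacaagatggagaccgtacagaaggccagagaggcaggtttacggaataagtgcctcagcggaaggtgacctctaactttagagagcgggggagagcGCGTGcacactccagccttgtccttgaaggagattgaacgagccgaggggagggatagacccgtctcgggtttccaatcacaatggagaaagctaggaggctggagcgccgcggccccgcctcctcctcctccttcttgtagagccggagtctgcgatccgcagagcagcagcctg
Hk2 (chr6:82774405-82774704, minus strand): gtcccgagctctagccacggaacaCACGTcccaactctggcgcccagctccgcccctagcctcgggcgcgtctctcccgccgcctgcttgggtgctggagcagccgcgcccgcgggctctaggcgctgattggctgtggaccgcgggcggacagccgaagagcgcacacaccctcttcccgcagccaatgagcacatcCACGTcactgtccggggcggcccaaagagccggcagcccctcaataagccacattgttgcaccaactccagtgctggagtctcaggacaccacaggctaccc
Hk1 (chr10:62340372-62340671, minus strand): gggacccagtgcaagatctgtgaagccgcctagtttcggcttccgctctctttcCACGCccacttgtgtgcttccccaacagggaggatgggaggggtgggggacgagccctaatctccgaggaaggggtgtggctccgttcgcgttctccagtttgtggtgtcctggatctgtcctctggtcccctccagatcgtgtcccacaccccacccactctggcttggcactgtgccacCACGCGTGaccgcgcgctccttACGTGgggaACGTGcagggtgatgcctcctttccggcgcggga
Pdk1 (chr2:71872974-71873273, plus strand): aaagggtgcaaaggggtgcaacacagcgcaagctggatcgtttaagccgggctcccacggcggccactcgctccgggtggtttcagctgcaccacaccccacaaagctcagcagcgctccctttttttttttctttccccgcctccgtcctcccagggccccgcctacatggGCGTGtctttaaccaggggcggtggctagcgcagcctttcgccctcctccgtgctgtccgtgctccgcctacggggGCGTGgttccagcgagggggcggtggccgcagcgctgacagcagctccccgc
Pdk4 (chr6:5496229-5496528, minus strand): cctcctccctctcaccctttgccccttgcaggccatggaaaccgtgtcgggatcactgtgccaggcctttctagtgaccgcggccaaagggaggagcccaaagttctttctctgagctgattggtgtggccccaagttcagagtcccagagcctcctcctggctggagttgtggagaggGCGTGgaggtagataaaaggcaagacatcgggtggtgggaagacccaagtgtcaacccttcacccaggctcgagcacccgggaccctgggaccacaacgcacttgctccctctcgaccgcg
The Ldha window holds 7 matches, 5 of ACGTG and 2 of GCGTG, against 1 in the Ldhb window. The order is the other way in the hexokinases, with 2 matches in the Hk2 window and 5 in the Hk1 window. The Pdk1 window holds 2 and the Pdk4 window 1. A match describes the letters only and does not show a binding site.

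Of the 37 genes, 35 had a promoter in the RefSeq table, and 32 of these (91.4%) hold at least 1 match in a window. The share was 46.7% over all 27025 genes of the table and 67.2% over the 10311 genes with at least 1 FPKM in untreated cells. The genes described here had 1.43 windows each, against 1.22 over the table, which gives them more letters to match. Per window, 80% held a match, against 43.8% of all windows and 61.2% of the windows of the genes with at least 1 FPKM in untreated cells. ACGTG is in 19.6% and GCGTG in 32.4% of all windows. The windows of Gpi1, Tpi1 and Eno2 hold none. A match was present in all 10 genes that were lower in MM401 than in untreated cells, in all 3 that were higher and in 19 of the other 22. With nearly all genes holding a match, its presence cannot separate the directions.

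**Figure D1:**
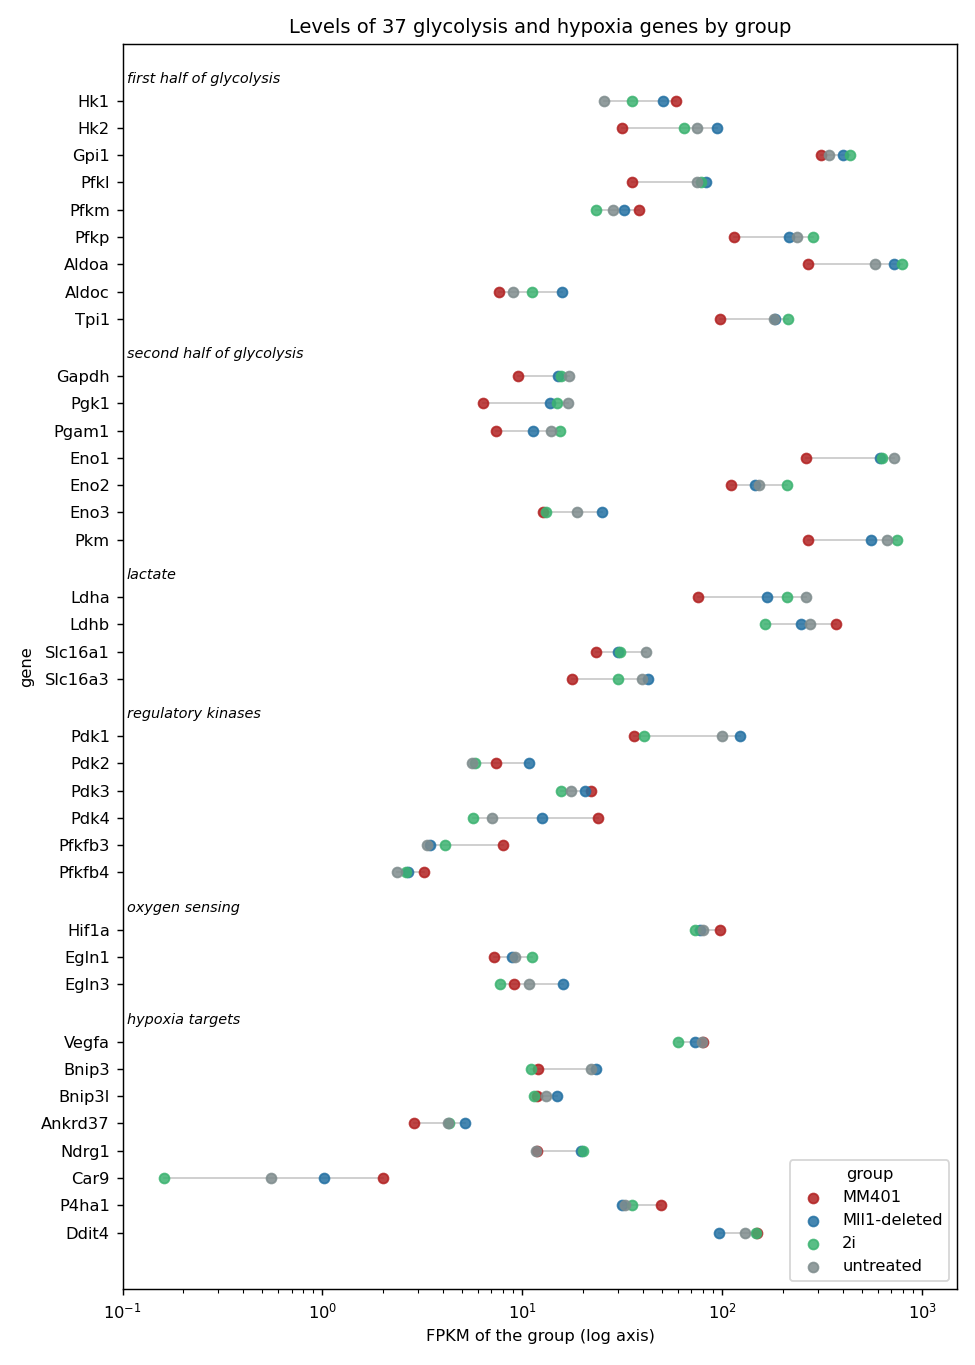
Level of each of the 37 genes (rows, grouped by role) in the 4 groups, as FPKM on a log axis. Each point is the authors' value for a group, without replicates. MM401 is the leftmost point for 20 genes, among them Ldha at 76.0 and Eno1 at 263 FPKM.

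In MM401 cells 7 of the 16 glycolytic enzymes and Ldha were lower than in untreated cells. Of 8 hypoxia targets grouped apart from them, none was called by FPKM, though Car9 passed 2-fold in estimated counts (1.43). Pdk1, also HIF-responsive, and Slc16a3 were lower. A second list of HIF targets, 31 of them tested, had 7 higher and 4 lower. Of the 37 genes, 10 were lower and 3 were higher. Over all 16768 loci tested, 6.08% were lower and 7.03% were higher. The intervals of the 2 groups were separate for 9 of the 10 lower and all 3 higher genes. The median ratio was −0.31 over the 37 genes and −0.04 over all loci tested. Among the 16 glycolytic enzymes and the 2 lactate dehydrogenases, 8 were lower and 1 was higher, 15 were below 0, and the median was −0.86. Summed over these 18 enzymes, the level was 2089 FPKM in MM401, 3599 in Mll1-deleted, 3956 in 2i and 3694 in untreated cells, so the sum was lowest in MM401 cells and the other 3 groups lay close together.

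Markers moved in the same comparison. In MM401 cells 3 of 12 pluripotency markers were lower than in untreated cells and none was higher, with Pou5f1 at 294 against 874 FPKM, Utf1 at 103 against 332 and Tdgf1 at 114 against 337. The 12 did not move alike, since 8 were below 0 in ratio and 4 above, with a median of −0.23. All 16 fibroblast markers were above 0 in ratio, with a median of 0.34, and Lox (1.51) and Postn (1.29) were called higher. Against 2i cells, 6 of the 16 fibroblast markers were above 0 in MM401 cells and 10 were below 0. The part of either cell type in the MM401 values was not tested.

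**Figure D2:**
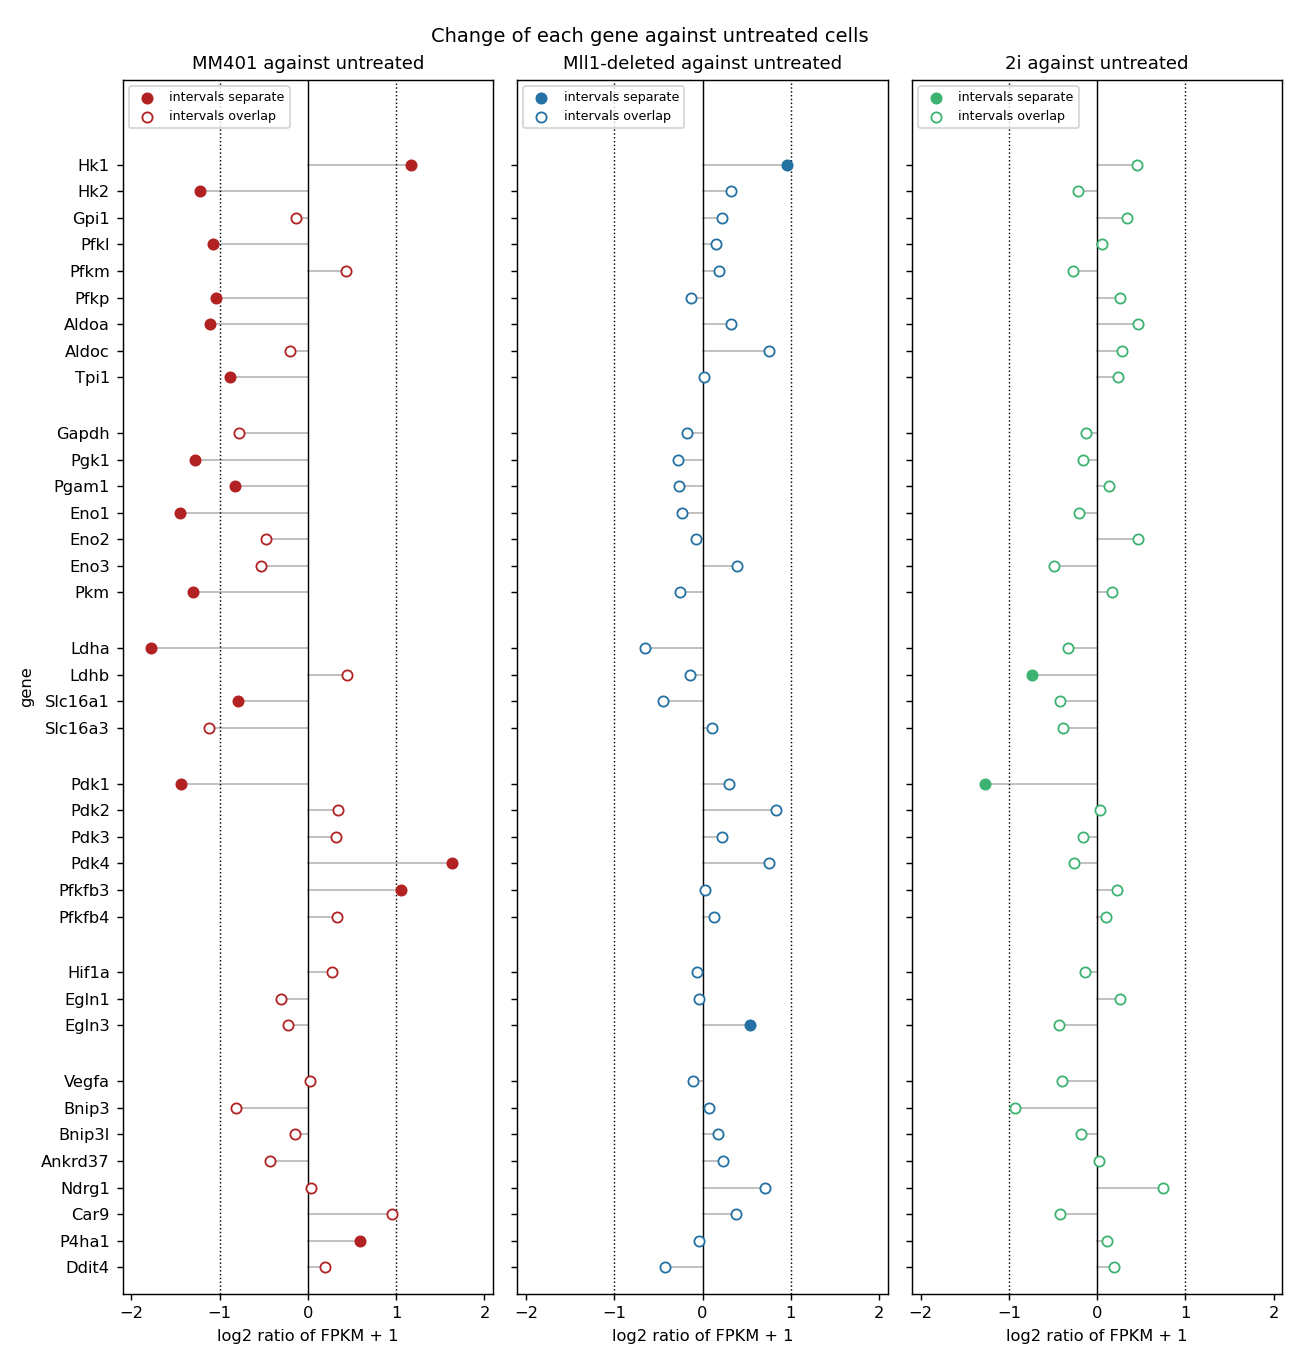
Ratio of each gene against untreated cells, as log2 of FPKM + 1, in MM401, Mll1-deleted and 2i cells. Dotted lines mark the 2-fold bounds, and filled points have separate authors' intervals. In the MM401 panel 10 points reach the lower bound and 3 the upper one, in the Mll1-deleted panel none does, and in the 2i panel Pdk1 does; Car9 in the 2i panel was under 1 FPKM in both groups.

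Hexokinase, the enzyme that traps glucose in the cell as glucose phosphate, had a different leading form in MM401 cells. Hk2, the inducible form that binds mitochondria, was at 31.5 [25.1 to 37.9] FPKM in MM401, 94.3 [78.6 to 110] in Mll1-deleted, 64.5 [52.0 to 77.1] in 2i and 75.0 [60.8 to 89.2] in untreated cells. Hk1, the form present in most tissues, was at 58.5 [45.0 to 72.0] FPKM in MM401, 50.3 [38.6 to 61.9] in Mll1-deleted, 35.2 [26.1 to 44.3] in 2i and 25.5 [20.5 to 30.5] in untreated cells. Hk2 was thus lowest in MM401 cells, below all 3 other groups with separate intervals, and Hk1 was highest there. Against untreated cells the ratio in MM401 cells was −1.23 for Hk2 and 1.17 for Hk1. As a share of the FPKM of both hexokinases, Hk1 made up 65.0% in MM401, 34.8% in Mll1-deleted, 35.3% in 2i and 25.4% in untreated cells. Hk1 was also above untreated cells in Mll1-deleted cells, by 0.95 with separate intervals, just short of 2-fold. The 2 loci lie at chr6:82725025-82774454 (Hk2) and chr10:62268853-62379943 (Hk1) in mm10.

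Phosphofructokinase, which commits sugar to glycolysis, has 3 subunit genes. Pfkl, the liver form, was at 35.1 [27.6 to 42.7] FPKM in MM401, 83.3 [66.7 to 99.9] in Mll1-deleted, 77.8 [62.4 to 93.2] in 2i and 74.9 [60.2 to 89.6] in untreated cells. Pfkp, the platelet form and the most abundant of the 3, was at 115 [75.3 to 154] FPKM in MM401, 216 [148 to 285] in Mll1-deleted, 285 [207 to 363] in 2i and 237 [166 to 309] in untreated cells. Both were lowest in MM401 cells, with ratios of −1.07 and −1.04 against untreated cells. The Pfkp value rests on FPKM, since its ratio in estimated counts was −0.79. Pfkm, the muscle form, ran the other way, at 38.5 FPKM in MM401, 32.3 in Mll1-deleted, 23.2 in 2i and 28.3 in untreated cells (0.43 in MM401 against untreated cells). Its share of the family was 20.4% in MM401, 9.7% in Mll1-deleted, 6.0% in 2i and 8.3% in untreated cells.

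The next steps split the sugar and interconvert its products. Aldoa, the main aldolase, was at 268 [213 to 323] FPKM in MM401, 725 [597 to 853] in Mll1-deleted, 794 [658 to 930] in 2i and 577 [476 to 679] in untreated cells. Tpi1, triosephosphate isomerase, was at 97.7 [71.7 to 124] FPKM in MM401, 183 [136 to 230] in Mll1-deleted, 213 [159 to 268] in 2i and 181 [134 to 229] in untreated cells. Both were lowest in MM401 cells with intervals separate from every other group. Against untreated cells Aldoa was called lower (−1.10), and Tpi1 fell short of 2-fold (−0.89). Aldoc, the brain aldolase, was at 7.65 FPKM in MM401, 15.9 in Mll1-deleted, 11.1 in 2i and 8.97 in untreated cells. Gpi1, glucose phosphate isomerase, differed little, at 313 FPKM in MM401, 401 in Mll1-deleted, 436 in 2i and 343 in untreated cells. The Gpi1 locus also carries the name of the overlapping gene Gm12762, so the value covers both.

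In the later steps all 7 genes were below 0 in MM401 against untreated cells, with a median of −0.83, and 3 were called lower. Eno1, the main enolase by FPKM, was at 263 [209 to 317] FPKM in MM401, 617 [491 to 743] in Mll1-deleted, 628 [502 to 753] in 2i and 723 [577 to 868] in untreated cells. Pkm, pyruvate kinase, was at 269 [209 to 328] FPKM in MM401, 555 [434 to 677] in Mll1-deleted, 744 [585 to 903] in 2i and 663 [522 to 804] in untreated cells. Pgk1, phosphoglycerate kinase, was at 6.35 [5.02 to 7.68] FPKM in MM401, 13.7 [11.1 to 16.4] in Mll1-deleted, 15.0 [12.1 to 17.9] in 2i and 16.9 [13.6 to 20.1] in untreated cells. In each of these 3 genes the MM401 interval lay below those of the other 3 groups, which overlapped each other, and the ratios against untreated cells were −1.45, −1.30 and −1.28. The Pkm locus also carries the name AC160637.1. The other enolases moved less. Eno2, the neuronal form, was at 110 FPKM in MM401, 145 in Mll1-deleted, 211 in 2i and 153 in untreated cells. Eno3, the muscle form, was at 12.7 FPKM in MM401, 25.0 in Mll1-deleted, 13.1 in 2i and 18.8 in untreated cells. The Eno2 locus is joined with Atn1, Gm45234, Grcc10 and Rnu7. By estimated counts Eno1 made up 45.0% of the enolases in MM401 and 65.5% in untreated cells. The Eno2 locus made up 50.1% in MM401 and 30.6% in untreated cells, so the leading enolase in MM401 depended on the scale.

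Gapdh, which carries out the oxidation step, was at 9.55 [3.54 to 15.5] FPKM in MM401, 15.0 [8.76 to 21.3] in Mll1-deleted, 15.6 [8.91 to 22.3] in 2i and 17.1 [10.6 to 23.6] in untreated cells. Pgam1, phosphoglycerate mutase, was at 7.37 [5.86 to 8.88] FPKM in MM401, 11.3 [9.07 to 13.5] in Mll1-deleted, 15.3 [12.4 to 18.3] in 2i and 13.8 [11.1 to 16.5] in untreated cells. Neither was called in MM401 against untreated cells, with ratios of −0.78 and −0.83, though the Pgam1 intervals were separate. The levels of Gapdh, Pgk1 and Pgam1 are far below those of the enzymes before and after them in the pathway, and their values are uncertain. Transcripts of 10 of the 37 genes share at least 500 bases at 95% identity or more with another annotated gene (GENCODE M21). Gapdh has 72 such copies, Bnip3 and Eno1 have 3 each, Pgk1 and Ldha have 2 each, and Gpi1, Pgam1, Pkm, Ldhb and Bnip3l have 1 each. With the FPKM of the copies added, the ratio of MM401 to untreated cells was −0.95 for Gapdh, −0.90 for Pgam1, −1.44 for Eno1, −1.29 for Pkm and 0.42 for Ldhb. Both copies of Pgk1 are listed at 0 in every group. The 2 copies of Ldha have no value under their names, so the Ldha ratio could not be recomputed with them. For Gapdh 71 of the 72 copies had a value, and for Bnip3 2 of the 3.

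**Figure D3:**
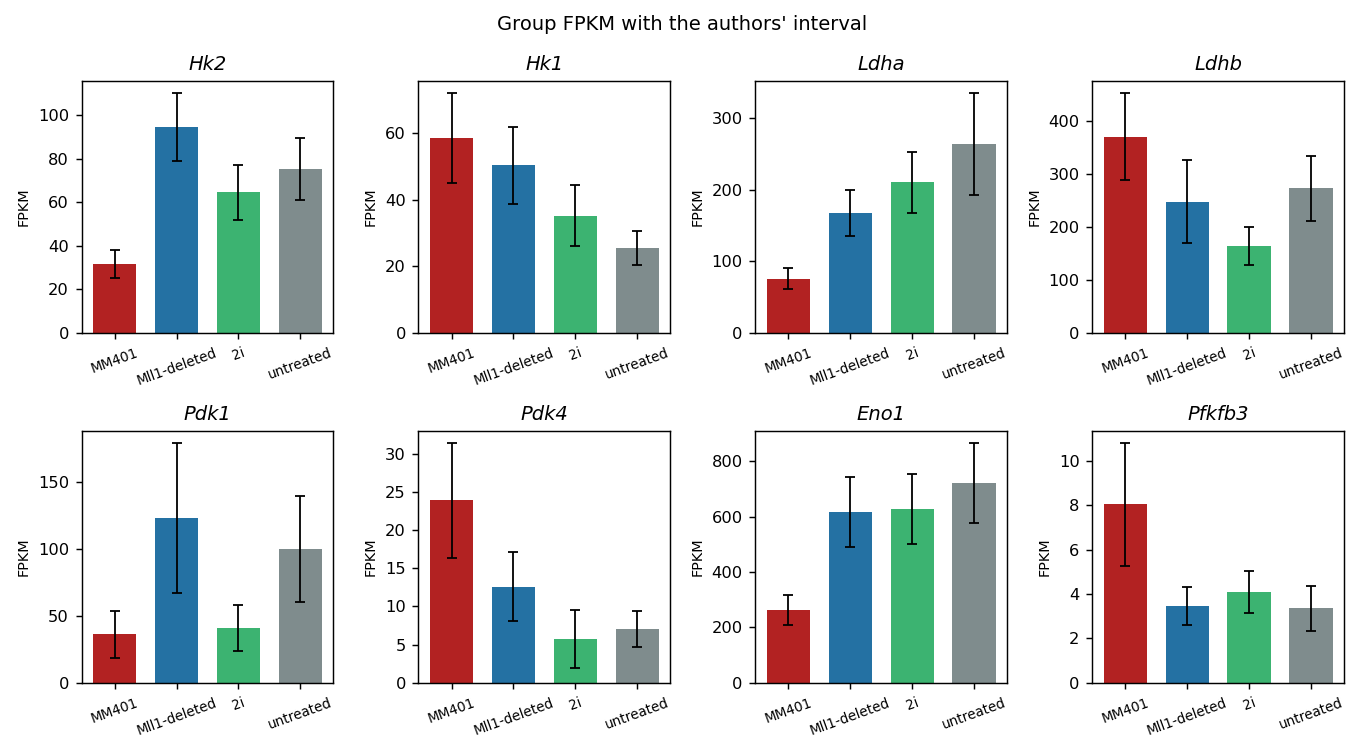
Level in FPKM (linear axes from 0) of Hk2, Hk1, Ldha, Ldhb, Pdk1, Pdk4, Eno1 and Pfkfb3 in the 4 groups, with the authors' interval as the error bar. Ldha is lowest in MM401 (76.0 against 264 FPKM in untreated cells) while Ldhb is highest there (370 against 273), and Pdk1 is low in MM401 and 2i.

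Lactate dehydrogenase gave the lowest ratio of the 37 genes in MM401 against untreated cells. Ldha, whose subunit favours making lactate, was at 76.0 [60.9 to 91.0] FPKM in MM401, 168 [135 to 200] in Mll1-deleted, 210 [168 to 252] in 2i and 264 [193 to 335] in untreated cells. Ldhb, whose subunit favours using lactate, was at 370 [288 to 453] FPKM in MM401, 248 [170 to 326] in Mll1-deleted, 164 [128 to 200] in 2i and 273 [212 to 334] in untreated cells. The Ldha ratio was −1.78, a level of FPKM + 1 that was 0.291 times the untreated one, and the Ldhb ratio was 0.44 with overlapping intervals. The MM401 interval of Ldha lay below those of all 3 other groups. Ldha made up 17.0% of the FPKM of both genes in MM401, 40.4% in Mll1-deleted, 56.2% in 2i and 49.1% in untreated cells. By FPKM Ldha led in 2i cells and Ldhb in the other groups, with nearly equal shares in untreated cells and overlapping intervals in Mll1-deleted cells. By estimated counts, which are not scaled to length, Ldha made up 26.5% in MM401, 58.4% in Mll1-deleted, 70.3% in 2i and 63.3% in untreated cells. MM401 had the lowest Ldha share on both scales, and which gene led in Mll1-deleted and untreated cells depended on the scale. The loci are chr7:46841475-46855629 (Ldha) and chr6:142490249-142507957 (Ldhb).

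Lactate leaves and enters cells through monocarboxylate transporters. Slc16a3 (MCT4), the exporter typical of glycolytic cells, was at 17.7 [8.69 to 26.6] FPKM in MM401, 42.6 [25.3 to 60.0] in Mll1-deleted, 30.2 [13.8 to 46.5] in 2i and 39.6 [21.9 to 57.3] in untreated cells. Slc16a1 (MCT1), the widely expressed transporter, was at 23.5 [18.1 to 28.8] FPKM in MM401, 30.0 [23.3 to 36.7] in Mll1-deleted, 30.8 [23.9 to 37.6] in 2i and 41.4 [32.0 to 50.8] in untreated cells. Slc16a3 was called lower in MM401 than in untreated cells (−1.12), but its wide intervals overlapped. Slc16a1 had separate intervals without reaching 2-fold (−0.79). All 4 genes of the lactate group were below untreated cells in 2i, by ratios from −0.73 to −0.33, and none was called.

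**Figure D4:**
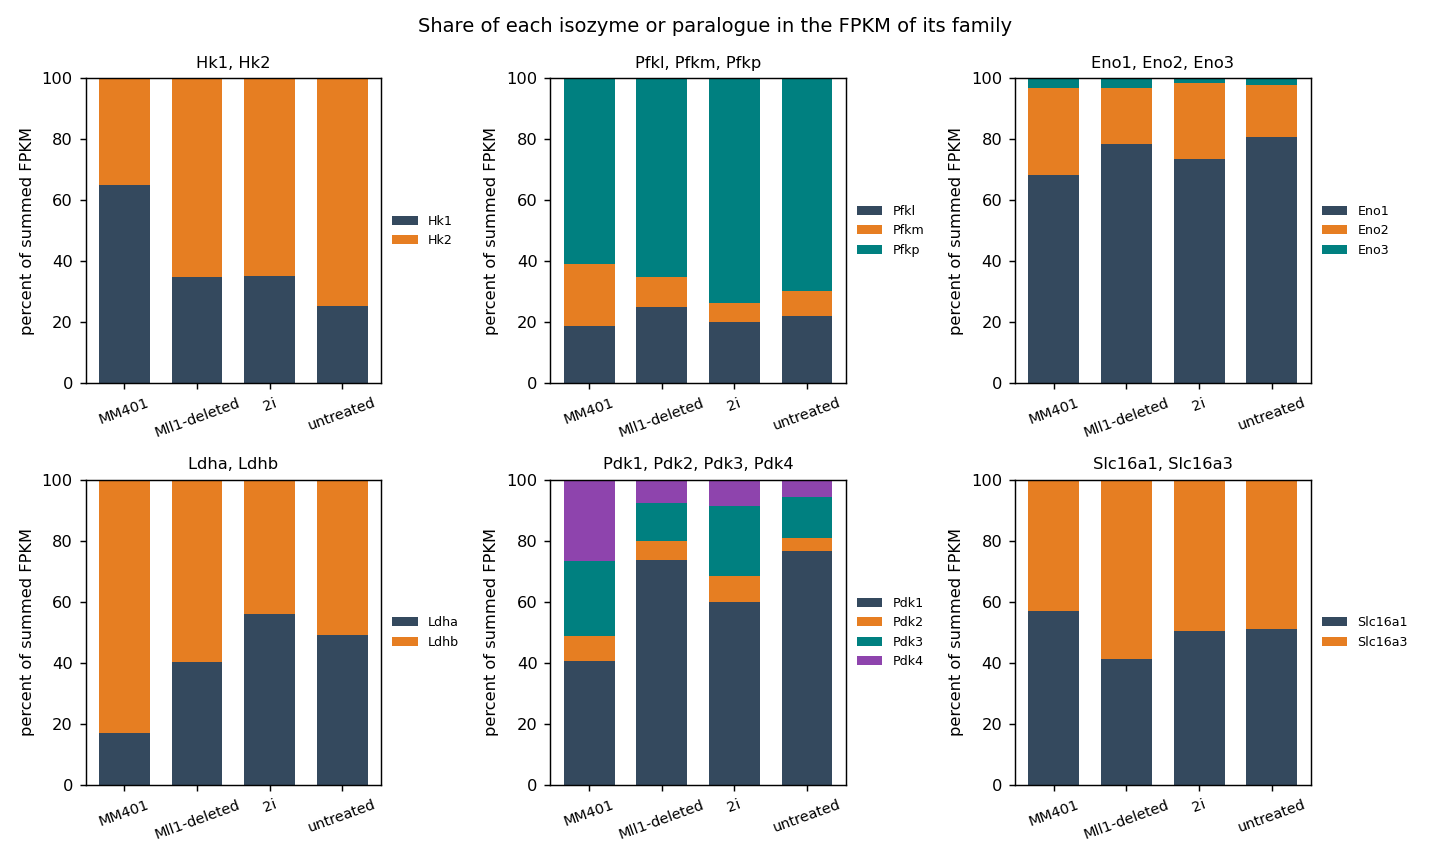
Share of each related gene in the summed FPKM of its family (bars add to 100 percent) in the 4 groups, for 6 families. Hk1 takes 65.0% of hexokinase FPKM in MM401 against 25.4% in untreated cells, Ldha 17.0% against 49.1%, and Pdk4 26.6% against 5.4%.

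Of the 6 kinases that set the flow of pyruvate and of sugar phosphates, 2 were higher, 1 was lower and 3 were called neither way in MM401 against untreated cells. The 4 pyruvate dehydrogenase kinases shut the entry of pyruvate into mitochondria. Pdk1, the HIF-responsive one, was at 36.3 [18.8 to 53.8] FPKM in MM401, 123 [66.7 to 179] in Mll1-deleted, 40.7 [23.6 to 57.9] in 2i and 99.9 [60.2 to 140] in untreated cells. Pdk4, induced by fasting in mouse tissues, was at 23.9 [16.3 to 31.4] FPKM in MM401, 12.5 [8.02 to 17.1] in Mll1-deleted, 5.69 [1.89 to 9.49] in 2i and 7.03 [4.66 to 9.41] in untreated cells. Pdk1 was low in both MM401 and 2i cells (−1.43 and −1.27 against untreated cells), with intervals separate from untreated and from Mll1-deleted cells. It was the one gene of the 37 called in 2i against untreated cells. Pdk4 was 3.10-fold higher in FPKM + 1 in MM401 than in untreated cells (1.63), with separate intervals. Pdk2 was at 7.36 FPKM in MM401, 10.7 in Mll1-deleted, 5.76 in 2i and 5.58 in untreated cells. Pdk3 was at 22.1 FPKM in MM401, 20.6 in Mll1-deleted, 15.5 in 2i and 17.5 in untreated cells, and neither of these kinases was called in any comparison. Pdk1 made up 40.5% of the 4 kinases in MM401, 73.7% in Mll1-deleted, 60.2% in 2i and 76.8% in untreated cells.

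Pfkfb3 and Pfkfb4 encode the enzymes that make and remove the sugar bisphosphate that activates phosphofructokinase. Pfkfb3, the form with the stronger kinase activity, was at 8.04 [5.26 to 10.8] FPKM in MM401, 3.44 [2.58 to 4.29] in Mll1-deleted, 4.09 [3.15 to 5.03] in 2i and 3.35 [2.34 to 4.35] in untreated cells. It was highest in MM401 cells, with an interval above those of the other 3 groups, and 2.08-fold higher in FPKM + 1 than in untreated cells. Pfkfb4 stayed between 2.37 and 3.22 FPKM in all groups.

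The oxygen sensing genes were not called in any comparison. Hif1a, the oxygen-controlled subunit of HIF, was at 97.4 FPKM in MM401, 76.9 in Mll1-deleted, 73.1 in 2i and 80.2 in untreated cells, at a locus joined with Snapc1 and AC124712.1. HIF is controlled mainly through the stability of its protein, which RNA does not measure. Egln1, the main prolyl hydroxylase that marks HIF for destruction, was at 7.21 FPKM in MM401, 8.92 in Mll1-deleted, 11.1 in 2i and 9.17 in untreated cells. Egln3, a hydroxylase that HIF itself induces, was at 9.03 [7.17 to 10.9] FPKM in MM401, 16.0 [13.0 to 19.1] in Mll1-deleted, 7.70 [6.18 to 9.23] in 2i and 10.8 [8.61 to 12.9] in untreated cells. Its Mll1-deleted interval lay above those of the other 3 groups, with ratios of 0.53 against untreated cells and 0.97 against 2i cells.

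The 8 genes grouped as hypoxia targets spread around 0 in MM401 against untreated cells, with a median of 0.03 and a range from −0.82 to 0.95. None of the 8 was called by FPKM. Their summed levels were 319 FPKM in MM401, 266 in Mll1-deleted, 290 in 2i and 293 in untreated cells. Vegfa, the growth factor for blood vessels, was at 80.1 FPKM in MM401, 73.3 in Mll1-deleted, 59.8 in 2i and 78.8 in untreated cells. Ddit4, which restrains the kinase mTOR under stress, was at 149 FPKM in MM401, 96.7 in Mll1-deleted, 148 in 2i and 130 in untreated cells. P4ha1, a collagen prolyl hydroxylase, was at 49.5 [40.3 to 58.8] FPKM in MM401, 31.6 in Mll1-deleted, 35.3 in 2i and 32.6 [26.5 to 38.7] in untreated cells, and of the 8 it alone had separate intervals between MM401 and untreated cells (0.59). Collagen hydroxylases are also made by fibroblasts, whose markers stood higher in the same comparison, and their part in this value was not tested.

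Bnip3, which removes mitochondria by autophagy, was at 12.0 [6.75 to 17.3] FPKM in MM401, 23.2 [13.3 to 33.2] in Mll1-deleted, 11.1 [5.63 to 16.6] in 2i and 22.0 [12.6 to 31.3] in untreated cells. It was thus low in MM401 and 2i cells, as was Pdk1, but its intervals overlapped in all of these comparisons. Car9, a carbonic anhydrase of the cell surface that HIF strongly induces, was at 2.00 [0.513 to 3.48] FPKM in MM401, 1.02 [0.207 to 1.82] in Mll1-deleted, 0.161 [0 to 0.419] in 2i and 0.552 [0 to 1.16] in untreated cells. It rests on 181 estimated counts in MM401, 90.9 in Mll1-deleted, 22.7 in 2i and 60.9 in untreated cells, so its order among groups is weakly supported. Its ratio in MM401 against untreated cells was 0.95, and 1.43 in estimated counts. The remaining 3 targets were not called by FPKM in any comparison. In estimated counts Ankrd37 was past 2-fold lower in MM401 than in Mll1-deleted (−1.27) and 2i cells (−1.19). It had 112 estimated counts in MM401 cells. Bnip3l, related to Bnip3, was at 11.8 FPKM in MM401, 15.0 in Mll1-deleted, 11.4 in 2i and 13.1 in untreated cells. Ankrd37 was at 2.88 FPKM in MM401, 5.17 in Mll1-deleted, 4.32 in 2i and 4.25 in untreated cells, whereas Ndrg1, a stress-responsive gene, was at 11.9 FPKM in MM401, 19.6 in Mll1-deleted, 20.2 in 2i and 11.6 in untreated cells.

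Mll1-deleted cells differed far less from untreated cells in these genes. None of the 37 was called higher and none lower, where 3.02% of all 16235 loci tested were higher and 3.66% were lower. Ratios ran from −0.65 (Ldha) to 0.95 (Hk1), the median was 0.10 against 0.05 over all loci, and 22 genes were above 0. With no test, a count of 0 does not show that the genes were alike in both groups. The 18 enzymes had a median of −0.03, and the 6 regulatory kinases were all above 0, between 0.03 (Pfkfb3) and 0.83 (Pdk2). Separate intervals were found for Hk1 and Egln3, both higher. In this comparison 14 of the 16 fibroblast markers were below 0 and 2 were called lower, and none of the 12 pluripotency markers was called; their part in the values was not tested.

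In 2i cells, 1 of the 36 genes tested, Pdk1, was lower than in untreated cells and none was higher, where 4.16% of 16039 loci were lower and 2.92% were higher. Ratios ran from −1.27 to 0.74 (Ndrg1), with a median of −0.05, against 0.08 over all loci, and 18 genes lay on either side of 0. Besides Pdk1, Ldhb had separate intervals, with a ratio of −0.73. The median was 0.26 over the 9 genes of the early steps and −0.13 over the 7 of the later steps. Of the 16 fibroblast markers 6 were called higher in 2i cells, Col1a1 by 2.32, and their part was not tested.

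The treated groups were then set against each other. These comparisons reuse the group values above, so they add no independent data. Against Mll1-deleted cells, MM401 cells had 9 of the 37 genes lower and 1 higher, Pfkfb3, where 5.03% of all 16668 loci tested were lower and 5.51% were higher. The median was −0.55, against −0.09 over all loci. With ratios centred on that median, the split over all loci moved to 1105 higher and 652 lower, against 919 higher and 839 lower without centring, and among the 37 genes 1 was higher and 7 were lower. The largest differences were in Pdk1 (−1.73), Hk2 (−1.55) and Aldoa (−1.43), each with separate intervals. Fibroblast markers differed in the same comparison, with 9 of 16 higher in MM401 cells, and so did pluripotency markers, with 4 of 12 lower; their part was not tested.

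Against 2i cells, MM401 cells had 9 genes lower and 3 higher, where 11.1% of all 16775 loci tested were lower and 10.4% were higher. All 9 lower genes were glycolytic enzymes or Ldha, all with separate intervals, with Aldoa at −1.56 and Pkm at −1.47 the furthest from 0. The 3 higher genes were Pdk4 (1.89), Car9 (1.37) and Ldhb (1.17). The share of lower genes among the 37 was 24.3%, and the median was −0.38, against −0.08 over all loci. That median depends on few genes, since without Gapdh, Pgk1 and Pgam1 it was −0.10, an alternative chosen after seeing the data. Mll1-deleted cells had 3 genes higher than 2i cells and none lower, where 5.96% of all 16224 loci tested were higher and 5.18% were lower. Pdk1 (1.57) had separate intervals, whereas Pdk4 (1.02) and Bnip3 (1.00) did not.

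Across the 6 comparisons 17 of the 37 genes were called at least once and 20 never, where 30.9% of the 17479 loci tested in any of them were called at least once. Hk2, Pfkl, Aldoa, Pgk1, Eno1, Pkm and Ldha were called lower in MM401 cells against each of the other 3 groups, comparisons that share the MM401 value. Over all these loci 1.78% were called lower in MM401 cells against each of the 3. Centred on the median of all loci, Pgk1 (−0.91) and Pkm (−0.95) lost the call against Mll1-deleted cells and Hk2 (−0.94) that against 2i cells. In estimated counts Pkm also lost the call against Mll1-deleted cells (−0.96). No gene was called higher in MM401 cells against all 3. MM401 cells had the lowest level of 20 of the 37 genes and the highest of 12. The shares were 38.4% lowest and 28.6% highest over 17439 loci tested in any comparison and with a value in every group. Among the 18 enzymes MM401 cells had the lowest level of 15, the exceptions being Hk1, Pfkm and Ldhb.

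**Figure D5:**
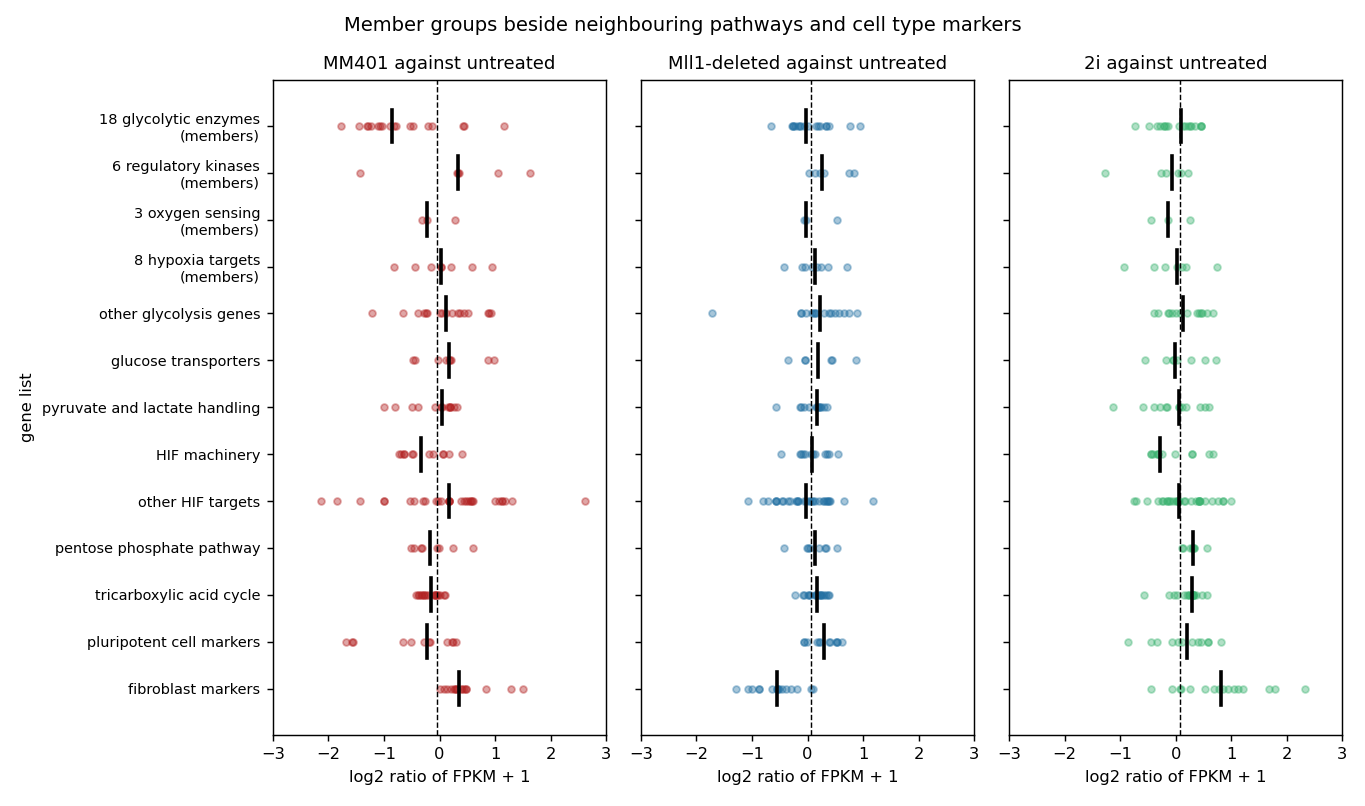
Ratios against untreated cells, as log2 of FPKM + 1, for groups of the 37 genes, neighbouring pathways and cell type markers (rows); points are genes that reached 1 FPKM in either group, bars are medians, and the dashed line is the median over all loci. The 18 enzymes have a median of −0.86 in MM401, −0.03 in Mll1-deleted and 0.10 in 2i cells, while fibroblast markers have one of 0.34 in MM401, −0.54 in Mll1-deleted and 0.83 in 2i cells.

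Genes around the core pathway were listed to see whether they moved with it. Of 17 tested among 23 other genes of glycolysis and its branches, 1 was lower and none higher in MM401 against untreated cells, with a median of 0.12. The gene called lower was Hkdc1, a hexokinase related to Hk1 and Hk2, at 2.49 FPKM in MM401, 1.46 in Mll1-deleted, 10.3 in 2i and 7.09 in untreated cells. It was called lower in Mll1-deleted cells also (−1.72), the only one of 16 tested there, and none of 14 was called in 2i cells. No glucose transporter was called against untreated cells, with 9 tested in MM401, 6 in Mll1-deleted and 8 in 2i cells. Their medians were 0.18 in MM401, 0.19 in Mll1-deleted and −0.01 in 2i cells. The transporter furthest from 0 in MM401 cells was Slc2a6 (0.98), at 1.78 against 0.413 FPKM in untreated cells.

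Among 13 tested genes of pyruvate and lactate handling, none was called in MM401 or Mll1-deleted cells and 1 was lower in 2i cells. It was Emb, the glycoprotein that brings monocarboxylate transporters to the membrane, at 53.2 [42.1 to 64.3] FPKM in MM401, 71.5 [56.8 to 86.1] in Mll1-deleted, 48.7 [38.0 to 59.3] in 2i and 107 [85.3 to 128] in untreated cells. The ratio against untreated cells was −1.12 in 2i cells and −0.99 in MM401 cells, both with separate intervals. None of 12 genes of the HIF machinery was called against untreated cells, with medians of −0.34 in MM401, 0.08 in Mll1-deleted and −0.28 in 2i cells. The furthest in MM401 cells was Cul2 (−0.74), part of the ligase that destroys HIF, at 36.95 against 62.2 FPKM in untreated cells with overlapping intervals.

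A second list of HIF targets, 31 of 32 tested, split in MM401 cells, with 7 higher (22.6%) and 4 lower (12.9%) than in untreated cells and a median of 0.17. Some entries are joint loci, among them Epo with Gnb2 and Mir6418, at 201 FPKM in MM401 and 351 in 2i cells. Such a value does not measure Epo alone. Over all loci tested 7.03% were higher and 6.08% lower. Stc2, a secreted glycoprotein, was at 2.44 [1.81 to 3.07] FPKM in MM401 cells against 14.0 [10.4 to 17.7] in untreated cells (−2.13), and Gys1, glycogen synthase, at 14.0 [1.84 to 26.1] against 53.2 [28.5 to 77.8] FPKM (−1.85). Tfrc, the transferrin receptor, was called lower with overlapping intervals (−1.42). In Mll1-deleted cells 1 was higher, the collagen-modifying Plod1 (75.4 against 32.6 FPKM in untreated cells, 1.18), and 1 was lower, Stc2 (6.13 against 14.0 FPKM, −1.08). None was called in 2i cells, where P4ha2 came nearest at 1.00, just short of 2-fold,, with 76.5 against 37.9 FPKM in untreated cells. Some of these targets, the collagen-modifying enzymes among them, are also made by fibroblasts, and the part of the feeder cells was not tested.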

How the data were processed

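RNA was sequenced from 8 samples in 4 groups of 2, which the labels call biological duplicates. Without stating roles, the submitters' processing notes list mm10, TopHat2 2.1.1, deepTools and SAMtools 1.5; which program made the tables is not stated. The authors deposited FPKM values with a lower and an upper limit in 1 table and estimated counts in the other, per the file headers. Both tables have 1 column for each group and thus pool its samples. The planned rule for that case was used, with no test. Whether counting used strand is not given. Estimated counts summed to 76501619 in MM401, 88203834 in Mll1-deleted, 90728747 in 2i and 84503307 in untreated cells.

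From these values, log2 ratios of FPKM + 1 were computed over the 50060 named loci. The remaining 11475 loci carry no name, and 1793 named loci join several genes, 4 of the 37 among them. For Slc16a1, which has 2 entries, the one with the higher mean was used. Values with the status HIDATA were treated as missing; none belongs to these genes. Genes past 2-fold in any comparison are given with their values in all groups, the others by level, and of each further list up to 4 genes past 2-fold or the one furthest from 0. One gene that this rule names is not reported here. The members, lists and markers were chosen with earlier results of these data known. As a check of the code, the rule was run on planted changes beyond 2-fold without noise. Its result there was fixed in advance and does not measure errors in these data. Alternatives were a pseudocount of 0.1, minimum levels, 1.5-fold, estimated counts, separate intervals, ratios centred on the median, and 2 chosen after seeing the data. Near-identical transcripts were found with blastn 2.17.0+ in GENCODE M21. Python 3.11.15, numpy 2.4.6, pandas 2.3.3 and matplotlib 3.10.9 were used. Coordinates count from 1.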

Additional observations from a re-analysis of the deposited data

How the results depend on the processing

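No paired analysis was possible because each group has 1 deposited column with both samples combined, and for the same reason no sample could be left out. No called gene changed direction under 11 alternatives, 2 of them chosen after seeing the data. The median of 2i against untreated cells did change sign, running from −0.15 to 0.03. Calls of single genes were kept in 2302 of 2372 recomputed values. Many could not change, since some alternatives only move a filter or leave genes out. They gave 221 values without a filter, 204 with a minimum of 5 FPKM, 197 without joint loci and 203 without Gapdh, Pgk1 and Pgam1. Summing over loci (221 values) could change Slc16a1 only. Of 262 recomputed counts and medians, 233 stayed within 1.5 times the reported count or within a spread of the reported median. That spread, 0.25 to 0.26, is the SD of a typical gene's ratio if the authors' limits are read as 2 SD either way. It is wide for a median over many genes. Across alternatives, 9 to 15 of the 37 genes were lower and 3 to 5 higher in MM401 against untreated cells, with a median from −0.39 to −0.22. With a 1.5-fold bound, 5 genes were higher in MM401 than in untreated cells. Mll1-deleted cells then had 5 genes higher and 1 lower than untreated cells, and 2i cells had 1 higher and 3 lower. Against Mll1-deleted cells MM401 cells had 4 higher and 18 lower, against 2i cells 6 higher and 14 lower, and Mll1-deleted cells had 8 higher and 1 lower than 2i cells. Genes called against untreated cells in any group then numbered 6 among other glycolysis genes, 3 among glucose transporters, 4 in pyruvate and lactate handling, 5 in the HIF machinery, 21 among other HIF targets and 1 in the pentose phosphate pathway. A pseudocount of 0.1 gave 5 genes higher in Mll1-deleted than in 2i cells, 6 other glycolysis genes and 3 glucose transporters. Estimated counts gave 2 genes higher in MM401 than in Mll1-deleted cells, 5 higher in Mll1-deleted than in 2i cells, and 5, 3 and 1 among other glycolysis genes, glucose transporters and the HIF machinery. Only 1 gene was higher in Mll1-deleted than in 2i cells when separate intervals were required. Centring on the median of all loci gave 2 genes lower in 2i than in untreated cells, Bnip3 (−1.01) joining Pdk1, and 1 glucose transporter. It also ended calls of Pgk1 (−0.91) and Pkm (−0.95) in MM401 against Mll1-deleted cells and of Hk2 (−0.94) in MM401 against 2i cells. Over all loci it moved the split of calls in MM401 against Mll1-deleted cells to 1105 higher and 652 lower, from 919 and 839. In estimated counts the calls of Pfkp were lost against untreated (−0.79) and 2i cells (−0.56), and that of Pkm against Mll1-deleted cells (−0.96). Without Gapdh, Pgk1 and Pgam1 the median of MM401 against 2i cells was −0.10, against −0.38 with them. The cause of these shifts was not tested. Depth limits Car9 most, at 22.7 estimated counts in 2i cells; the other genes had at least 100 in every group.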

Other observations

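Against untreated cells the pathways that glycolysis feeds shifted little. None of the 8 genes of the pentose phosphate pathway, which makes NADPH and ribose from glucose phosphate, was called in any group against untreated cells. Their median ratios were −0.18 in MM401, 0.13 in Mll1-deleted and 0.31 in 2i cells, and all 8 were above 0 in 2i cells. Taldo1, transaldolase, lay furthest from 0 in 2i cells, at 384 against 261 FPKM in untreated cells (0.56) with overlapping intervals. In MM401 cells the gene furthest from 0 was H6pd, the hexose phosphate dehydrogenase of the endoplasmic reticulum, at 21.2 against 13.7 FPKM in untreated cells (0.59).

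None of the 18 genes of the tricarboxylic acid cycle was called either. In MM401 cells 15 of the 18 were below untreated cells, with a median of −0.16 and a lowest ratio of −0.42 for Mdh1, the cytosolic malate dehydrogenase. In Mll1-deleted and 2i cells 15 of the 18 were above untreated cells, with a median of 0.17 in Mll1-deleted and 0.30 in 2i cells. Idh3a, a subunit of isocitrate dehydrogenase, lay furthest from 0 in 2i cells, at 71.7 against 107 FPKM in untreated cells (−0.57). Over all loci tested the medians were −0.04 in MM401, 0.05 in Mll1-deleted and 0.08 in 2i cells. Set against 2i cells, MM401 cells had medians of −0.51 in the pentose phosphate pathway and −0.38 in the cycle. Set against Mll1-deleted cells, the medians were −0.19 and −0.29. No gene of either pathway was called there. Over all loci tested the median was −0.08 against 2i and −0.09 against Mll1-deleted cells.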
